A study of Mus musculus with 8 samples.

Results

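Intergenic CpGs far from the starts of protein-coding genes were examined in neural precursor cells (NPCs) with and without knockdown of *Tet3*. They were chosen by position alone: CpGs on autosomes that lay outside every gene of the GENCODE vM1 annotation and more than 100 kb from any protein-coding transcription start site (TSS). The rule found 37350 of the 757812 CpGs listed, which is 4.93%, and they are called distal CpGs here. Of these, 31641 had a coverage of at least 10 calls in all 4 oxBS libraries and 5709 did not, and 30483 had this coverage in all 4 BS libraries. Only 17741 of the 31641 also lay more than 100 kb from the TSSs of all annotated transcripts. All positions are given in mm9, a build of the mouse genome.

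The cells were NPCs differentiated from A2lox.cre mouse ES cells, which were grown on feeder cells and carried an inducible shRNA against *Tet3* (shTet3) or a non-targeting control shRNA (shScr). Both groups received doxycycline, which switches the shRNA on, at 2 µg/ml for 5 days. Each shRNA had 2 replicates, and the DNA of each replicate (100 ng) was digested with MspI and divided into a library with bisulphite conversion (BS) and one with oxidation before it (oxBS), 8 libraries in all. In BS libraries 5-methylcytosine (5mC) and 5-hydroxymethylcytosine (5hmC) are both read as C, and in oxBS libraries only 5mC is. The shRNAs were carried by separate ES cell lines, so that the shRNA and the line cannot be told apart. Nothing in the labels says that replicates were separate cultures, and p-values from averages over CpGs measure only the spread between these libraries. Tests of the calls at single CpGs cover counting error only, unless a correction for that spread is named. The libraries held 42516767 to 61865967 calls, with a median coverage of 30 to 40 at distal CpGs and of 43 to 54 over all CpGs. RNA was not analysed here, so the knockdown itself, and the identity of the NPCs, were not checked in these files.

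In most mammalian cells, CpGs far from genes are methylated by default, whereas CpG islands, the CpG-rich stretches at which many genes start, are kept free of methylation. TET3 is one of the dioxygenases that oxidise 5mC to 5hmC, a step on one route to unmethylated cytosine, and DNA methyltransferases set and maintain 5mC. Distal intergenic sequence holds few coding functions, many transposon remnants and some distant regulatory elements. MspI cuts at CCGG whatever its methylation, so the assay reads such sequence only where these sites lie close to each other.

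The distal CpGs lay at a median of 222.6 kb from the nearest protein-coding TSS, with quartiles of 144.1 and 383.9 kb and a highest distance of 2484 kb. They were spread over 5400 windows of 100 kb on all 19 autosomes, from 537 on chromosome 19 to 2909 on chromosome 1, with a median of 4 in a window. Their sequence was CpG-poor. The sequence 100 bp to either side of a covered distal CpG held a median of 6 CpGs (quartiles 4 and 8, the CpG itself included) and a median GC content of 52.7%. Intergenic CpGs within 100 kb of a TSS had 12 CpGs and 60.2% GC, and CpGs in gene bodies (in a gene and more than 1 kb from any protein-coding TSS) had 7 CpGs and 56.7% GC. Sequence was called CpG-rich where, 250 bp to either side, GC reached 55% and the ratio of observed to expected CpGs reached 0.65, and it held 6.70% of the distal CpGs, 45.5% of the nearer intergenic CpGs and 19.1% of those in gene bodies. By the digestion, 96.5% of the distal CpGs lay within 75 bases of a CCGG site.

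To show what this sequence looks like, 100 bases around the best covered distal CpG of 5 windows are given on the forward strand, with every CG in capitals. They were picked from the windows described further on, after their values had been seen, to set CpG-poor beside CpG-rich sequence. Each is named after the nearest protein-coding gene.
*Fam110b*, chr4:5138643-5138742: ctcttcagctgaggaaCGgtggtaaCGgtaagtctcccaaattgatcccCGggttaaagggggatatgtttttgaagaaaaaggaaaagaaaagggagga
*Cdh20*, chr1:104859832-104859931: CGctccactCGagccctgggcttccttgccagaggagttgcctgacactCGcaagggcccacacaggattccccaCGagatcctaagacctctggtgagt
*Rin2*, chr2:145500904-145501003: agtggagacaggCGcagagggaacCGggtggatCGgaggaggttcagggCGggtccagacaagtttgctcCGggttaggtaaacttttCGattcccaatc
*Lsm5*, chr6:56518882-56518981: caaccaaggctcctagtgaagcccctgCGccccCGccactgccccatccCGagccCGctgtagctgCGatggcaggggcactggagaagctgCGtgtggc
*Pgk2*, chr17:39983605-39983704: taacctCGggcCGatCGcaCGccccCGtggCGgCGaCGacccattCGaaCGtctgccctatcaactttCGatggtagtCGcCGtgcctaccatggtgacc
The stretches near *Fam110b* and *Cdh20* held 3 and 4 CGs, those near *Rin2* and *Lsm5* held 6 each, and the one near *Pgk2* held 13. The level of the central CpG in the oxBS libraries of shScr replicates 1 and 2 was 68.0% and 83.0% near *Fam110b* and 51.8% and 73.7% near *Cdh20*, but 0% in both libraries near *Rin2* and near *Lsm5*. In the *Pgk2* stretch it was 3.84% and 1.503%.

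Distal CpGs were about as methylated as gene bodies in the control, and had lower values in shTet3. Mean 5mC over the 31641 distal CpGs was 53.8% and 67.2% in shScr replicates 1 and 2, and 44.2% and 41.7% in shTet3 replicates 1 and 2. Both shTet3 libraries lay below both shScr libraries. For shScr the mean was 60.5% ± 9.49 (SD, n = 2). For shTet3 it was 43.0% ± 1.78 (SD, n = 2), which is −17.5 percentage points from the control. The exact permutation test (two-sided) had p = 0.33, which is the lowest value that 2 libraries against 2 can reach. The shScr replicates themselves differed by 13.4 percentage points. Against shScr replicate 1 alone the difference was −10.8 on these CpGs and against shScr replicate 2 alone −24.2, so its size rests on which control library is used. Over all 650754 autosomal CpGs covered, the 4 libraries had 27.2%, 32.3%, 22.8% and 23.0%, and the difference was −6.93.

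The BS libraries, which read 5mC and 5hmC together, gave like values. Over the 30483 distal CpGs covered in them shScr had 53.8% and 66.8% and shTet3 had 44.0% and 41.7%, a difference of −17.5 percentage points (exact permutation test, p = 0.33). Since a BS library and an oxBS library of the same number were made from the same DNA, they are separate reads of the same cells and not further replicates.

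**Figure D1:**
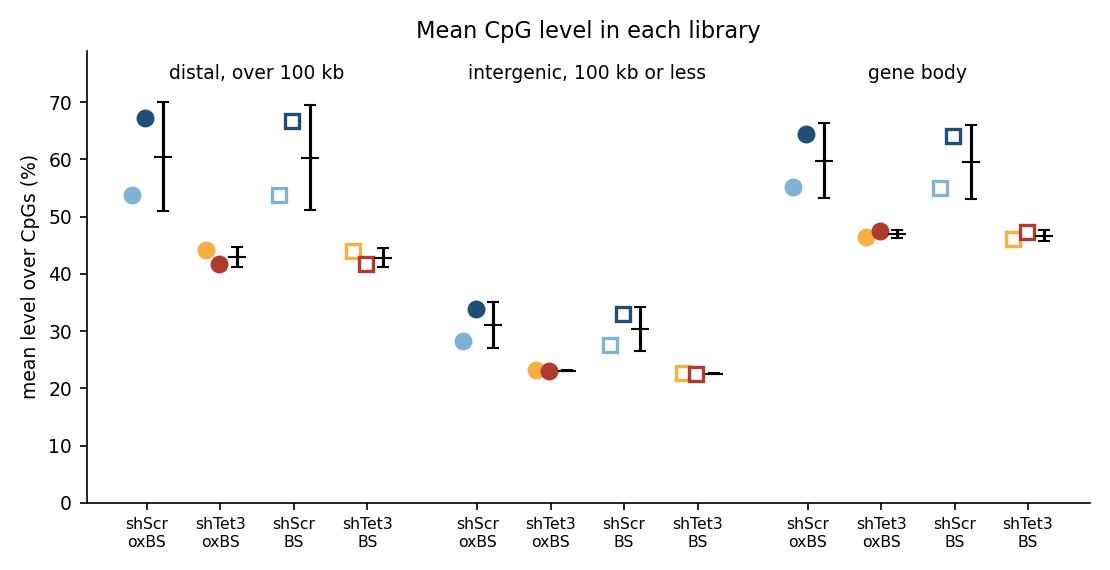
Mean CpG level (%) in each library for distal CpGs, intergenic CpGs within 100 kb of a TSS and gene bodies; filled circles are oxBS libraries and open squares BS libraries, light symbols are replicate 1 and dark symbols replicate 2 (blue shScr, orange and red shTet3), and black bars give the mean ± SD of 2 libraries. The shScr replicates lie farthest apart at distal CpGs, at 53.8% and 67.2% in oxBS, and the shTet3 libraries lie below both.

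The distal CpGs were then set beside the other classes. Intergenic CpGs within 100 kb of a TSS (156061 covered) had 28.2% and 33.9% 5mC in shScr and 23.2% and 23.0% in shTet3, a difference of −7.95 percentage points. CpGs in gene bodies (182514 covered) had 55.2% and 64.4% in shScr against 46.4% and 47.5% in shTet3, a difference of −12.8. The level of distal CpGs minus that of nearer intergenic CpGs was 25.6 and 33.3 percentage points in the shScr libraries and 21.0 and 18.7 in the shTet3 libraries. This gap was thus narrower in shTet3, with a difference of differences of −9.57 percentage points (exact permutation test, p = 0.33). Against gene bodies, the distal level was −1.38 and 2.74 percentage points away in shScr and −2.22 and −5.83 in shTet3, a difference of differences of −4.70 (exact permutation test, p = 0.33). The libraries of the 2 shRNAs did not overlap in either measure. As a share of the control level, shTet3 kept 71.03% at distal CpGs, 74.4% at nearer intergenic CpGs and 78.6% in gene bodies. When calls were pooled in place of averaging over CpGs, the difference of differences was −3.60 against nearer intergenic CpGs and changed sign to 2.84 against gene bodies, and with the window of deepest coverage on chromosome 17 (described further on) left out as well these were −10.5 and −4.03. Without shScr replicate 2 they were −5.65 and −2.62, from averages over CpGs.

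In shTet3, fewer distal CpGs were highly methylated and more lay in the intermediate range. Levels of at least 70% were found at 30.8% of the distal CpGs in oxBS replicate 1 of shScr and at 57.3% in replicate 2, but at 11.6% and 10.4% in the shTet3 replicates. Levels from 10 to 40% were found at 19.3% and 5.09% in the shScr replicates and at 30.5% and 38.7% in the shTet3 replicates. Levels under 10% were found at about the same share in all 4 libraries, with 8.57% and 7.16% of the distal CpGs in shScr and 9.001% and 8.74% in shTet3.

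In the shScr libraries methylation was highest from 200 to 300 kb from a TSS, and lower both nearer to a TSS and farther away. Within 1 kb of a TSS, intergenic CpGs had 4.47% and 5.18% 5mC in the shScr libraries, and between 50 and 100 kb they had 50.9% and 61.3%. From 100 to 150 kb the 4 oxBS libraries had 56.5% and 67.8% in shScr against 45.8% and 44.8% in shTet3. Between 200 and 300 kb they had 56.7%, 70.1%, 45.9% and 44.0%. Beyond 1000 kb, where 1376 distal CpGs were covered, they had 45.5%, 66.4%, 40.1% and 35.0%. The difference between the shRNAs lay between −16.8 and −18.4 percentage points in all 6 distal bands, against −14.9 from 50 to 100 kb. On either side of the 100 kb limit the difference was −15.6 from 90 to 100 kb and −16.4 from 100 to 110 kb.

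The spread between replicates, in contrast, widened with distance. ShScr replicate 2 exceeded replicate 1 by 11.3 percentage points from 100 to 150 kb, by 13.4 from 200 to 300 kb and by 20.9 beyond 1000 kb. ShTet3 replicate 2 lay below replicate 1 by 1.03 in the first of these bands and by 5.10 in the last. Beyond 1000 kb, the mean of shTet3 was 7.94 percentage points below shScr replicate 1 and 28.9 below shScr replicate 2.

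**Figure D2:**
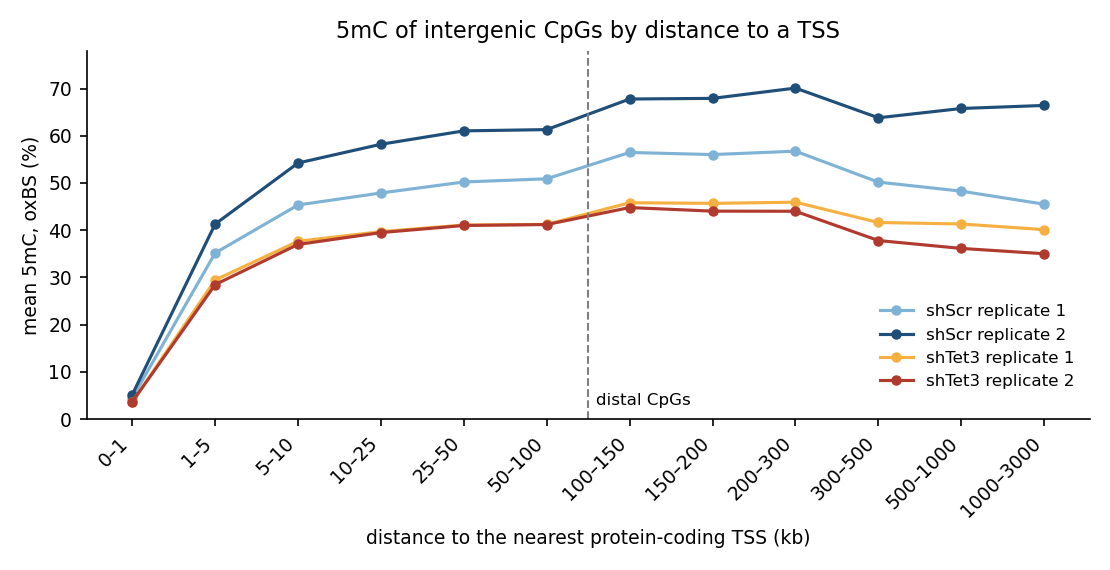
Mean 5mC (%, oxBS libraries) of intergenic CpGs in bands of distance to the nearest protein-coding TSS (kb, bands of unequal width), 1 line per library; distal CpGs lie right of the dashed line at 100 kb. The shTet3 lines stay below both shScr lines in every band, and the shScr lines draw apart from 11.3 to 20.9 percentage points across the distal bands.

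Sorting CpGs by their level in the control brought the classes closer together. CpGs were sorted by their mean BS level in shScr, and the difference was read in the oxBS libraries, which are separate reads but of the same shScr DNA. At distal CpGs under 10% in BS (2110 CpGs) the difference was −0.385 percentage points. It was −11.7 between 10 and 40% (2539 CpGs), −19.5 between 40 and 70% (12344 CpGs), −20.2 between 70 and 90% (10477 CpGs) and −15.5 at 90% and over (1596 CpGs). At nearer intergenic CpGs the same classes gave −0.237, −6.92, −17.8, −18.6 and −14.3, and in gene bodies −0.550, −6.60, −16.9, −17.1 and −12.2. In each class from 10% upwards the distal value was the lowest, by 1.18 to 5.12 percentage points. The widest gap was in the class from 10 to 40%, where the levels themselves were unlike: the shScr libraries had 24.9% and 40.7% at distal CpGs, 21.2% and 27.6% at nearer intergenic CpGs and 21.3% and 29.4% in gene bodies. These gaps are smaller than the 6.03 to 18.1 percentage points between the shScr replicates in the same distal classes, and they were not tested. Among intergenic CpGs with a BS level of at least 40%, the difference was −14.8 within 1 kb of a TSS, −18.8 from 50 to 100 kb, −18.9 from 100 to 150 kb and −20.0 from 500 to 1000 kb.

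**Figure D3:**
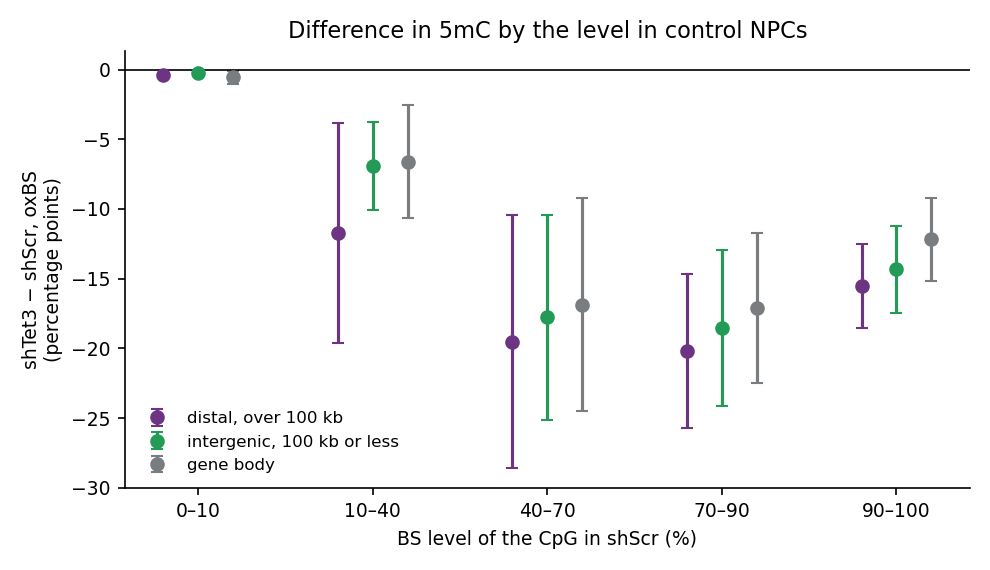
Difference in 5mC between shTet3 and shScr (percentage points, oxBS) by the BS level of the CpG in shScr, for distal CpGs, nearer intergenic CpGs and gene bodies; points are differences of the group means, and bars run from the difference against shScr replicate 1 to that against shScr replicate 2. The points of the 3 classes lie within 5.12 percentage points of each other, while the bars of distal CpGs span up to 18.1.

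CpG density divided the distal CpGs more sharply than distance did. With 1 to 3 CpGs in the 100 bp to either side (7744 CpGs) the oxBS levels were 54.2% and 71.8% in shScr against 44.4% and 42.2% in shTet3, a difference of −19.6. With 4 to 5, 6 to 8 and 9 to 12 CpGs the difference was −19.0, −18.7 and −17.0. With 13 or more (3242 CpGs) the levels were 25.1%, 30.7%, 22.2% and 19.9% and the difference was −6.78. In CpG-rich sequence, as defined above, distal CpGs (2120) had 12.1% and 14.5% in shScr against 10.6% and 10.3% in shTet3, a difference of −2.87, whereas the 70948 nearer intergenic CpGs in such sequence had 2.83% and 3.28% in shScr. Outside CpG-rich sequence the difference was −18.6 at distal, −14.0 at nearer intergenic and −15.1 at gene body CpGs.

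Single CpGs were compared by logistic regression of methylated and unmethylated calls with Benjamini-Hochberg adjustment over all 662455 CpGs tested, and a differentially methylated position (DMP) was a CpG with *q* under 0.01 whose pooled levels were more than 10 percentage points apart. Hypo-DMPs, lower in shTet3, were 10966 of the 31641 distal CpGs, or 34.7%, against 13.9% of all CpGs tested, 15.7% of nearer intergenic CpGs and 26.9% of CpGs in gene bodies. Hyper-DMPs were 15 distal CpGs, or 0.0474%, against 0.0814% of all CpGs tested. The median pooled difference was −17.8 percentage points over the distal CpGs and −0.581 over all CpGs tested. Both shTet3 libraries lay below both shScr libraries at 17645 distal CpGs (55.8%, against 26.3% of all CpGs tested) and above both at 363 (1.15%, against 2.04%). Distal hypo-DMPs had a median level of 73.5% in shScr, in the oxBS libraries from which they were called. The test treats calls as independent and has no term for the spread between replicates. With an F test that corrects for it (overdispersion-corrected logistic regression), 0 distal CpGs passed. With 2 degrees of freedom left for the spread, that test could hardly reach a *q* under 0.01 at these coverages. The 0 was thus nearly fixed beforehand and gives no result on single CpGs. By the same test, 1667 distal CpGs (5.27%, against 1.96% of all CpGs tested) were lower in shTet3 at an unadjusted p under 0.05. At that p, 5 were higher (0.0158%, against 0.00317% of all). Without shScr replicate 1 the hypo-DMPs numbered 13714 distal CpGs (41.6%, against 16.7% of all CpGs tested), and without shTet3 replicate 1 they numbered 8124 (25.2%, against 8.72%). Without shScr replicate 2 the hypo-DMPs numbered 4075 distal CpGs (12.4%, against 5.79% of all CpGs tested), and without shTet3 replicate 2 they numbered 6404 (20.1%, against 9.93%). The hyper-DMPs numbered 32 without shScr replicate 1 (0.0971%, against 0.121% of all), 124 without shScr replicate 2 (0.378%, against 0.435%), 6 without shTet3 replicate 1 (0.0186%, against 0.0755%) and 40 without shTet3 replicate 2 (0.125%, against 0.128%).

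In the BS libraries 10592 of the 30483 distal CpGs tested were hypo-DMPs, or 34.7%, against 13.8% of all CpGs tested, and 6 (0.0197%) were hyper-DMPs, against 0.0621% of all. Of the distal hypo-DMPs from oxBS libraries that were covered in BS libraries (10351), 97.2% had a lower level in shTet3 there too, against 90.7% of all 28013 distal CpGs covered in both kinds of library, and 52.8% were hypo-DMPs in both, against 36.5% of those 28013 that were hypo-DMPs in BS. Both kinds of library read the same DNA. The hypo-DMPs in both were 53.4% of the 10235 distal hypo-DMPs from BS libraries that were covered in oxBS libraries. Leaving out shScr replicate 1, shScr replicate 2, shTet3 replicate 1 and shTet3 replicate 2 in turn, the BS hypo-DMPs were 42.6%, 10.98%, 24.9% and 18.7% of distal CpGs, against 17%, 4.94%, 8.46% and 9.2% of all CpGs tested. The F test, which could hardly reach a *q* under 0.01 here either, called 0 of them, with 1630 distal CpGs lower at an unadjusted p under 0.05 (5.35%, against 1.86% of all). Of the 14 hyper-DMPs covered in BS libraries, 7 were higher in shTet3 there and 1 was a hyper-DMP.

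BS and oxBS were next compared within each shRNA, since 5hmC raises BS above oxBS. In shScr, over 29595 distal CpGs, the oxBS libraries had 53.5% and 67.003% and the BS libraries 54.3% and 67.3%. BS minus oxBS was 0.528 ± 0.327 percentage points (SD of 2 pairs of the same DNA). In shTet3, over 32070 distal CpGs, the oxBS libraries had 43.6% and 41.1% and the BS libraries 44.1% and 41.7%, a difference of 0.514 ± 0.0943. Both pairs of each shRNA had the higher level in BS. An exact permutation test without the pairing gave p = 0.67 for each shRNA. The replicates lay farther apart than BS and oxBS did, so that test gives no result on the paired difference. The sign of the shScr value was not stable to the way of averaging: with pooled calls it was −0.249.

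CpGs with BS above oxBS at the DMP thresholds numbered 151 of the 29595 distal CpGs in shScr, or 0.510%, against 0.33% of all CpGs tested. The opposite direction, which 5hmC cannot give, was found at 124 distal CpGs (0.419%, against 0.17% of all), so that the opposite calls were 82.1% as many as the calls at distal CpGs and 51.6% over all CpGs. Without shScr replicate 1, 3 distal CpGs had BS above oxBS (0.00963%, against 0.00384% of all), and without shScr replicate 2 there were 360 (1.07%, against 0.663%). The F test, which could hardly reach a *q* under 0.01 here either, called 0 of them, with 9 at an unadjusted p under 0.05 (0.0304%, against 0.0329% of all). In shTet3, 8 of 32070 distal CpGs had BS above oxBS (0.0249%, against 0.0239% of all CpGs tested) and 10 had BS below (0.0312%, against 0.0141% of all). The correlation of BS minus oxBS between the shScr replicates was 0.00737 over the distal CpGs, which share libraries and are no independent replicates. At this depth, 5hmC of single distal CpGs was not detectable above the calls in the wrong direction.

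Averages over 100 kb windows show how the difference was laid out along the genome. The 880 windows with at least 10 covered distal CpGs had a median 5mC of 61.6% and 73.8% in the shScr libraries and 49.1% and 45.8% in the shTet3 libraries. The difference had a median of −18.3 percentage points with quartiles of −21.5 and −14.9, and the mean level was higher in shTet3 in 7 windows. Levels of at least 70% were found in 156 and 569 of these windows in the shScr replicates and in 11 and 28 in the shTet3 replicates. Windows under 10% were 21 and 16 in shScr and 20 in each shTet3 replicate.

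**Figure D4:**
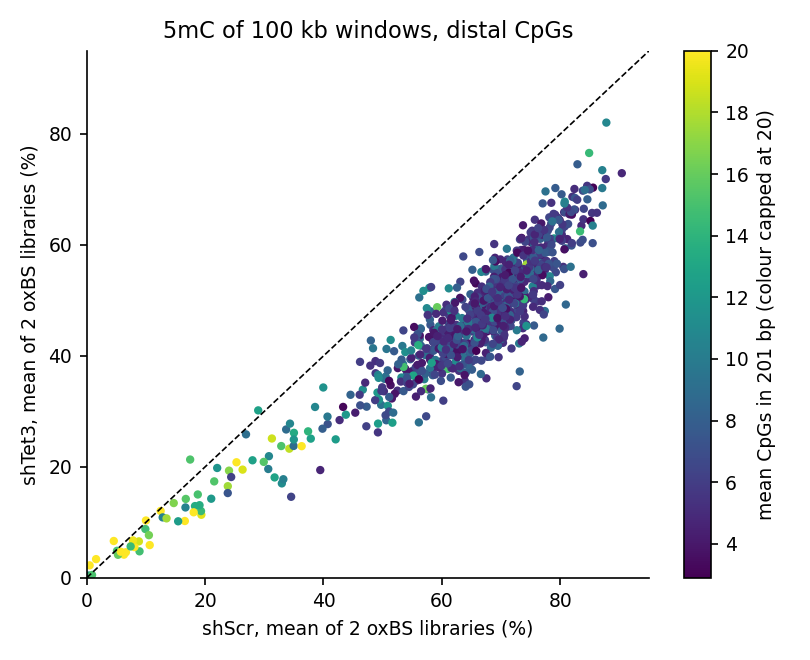
Mean 5mC (%, oxBS) of the distal CpGs of 880 windows of 100 kb with at least 10 such CpGs, shScr on the horizontal and shTet3 on the vertical axis, coloured by the mean number of CpGs within 100 bp to either side; the dashed line marks equal levels. All but 7 windows lie on or below the line, and CpG-dense windows gather at its lower end.

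The test of windows used limma on all 14561 autosomal windows with at least 5 covered CpGs, those of distal and of other CpGs taken separately. None of the 2301 distal windows passed an adjusted p of 0.05 (0 of all windows, 0%), and the lowest adjusted p among them was 0.162. At an unadjusted p under 0.05, 962 distal windows (41.8%) were lower in shTet3, against 28.4% of all windows. Both shTet3 libraries lay below both shScr libraries in 1882 distal windows (81.8%), which is close to the 81.6% of all windows. The median standard error of the difference was 6.804 percentage points. Without shScr replicate 1, which leaves 1 control library whose spread is taken from the shTet3 pair, 813 of 2393 distal windows (34.0%) passed, against 20.4% of all windows.

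The 5 windows with the lowest differences had nearest genes of unlike function, at a median distance from 247.5 kb (*Gnpda2*) to 944.5 kb (*Csmd3*). None of these windows passed the adjusted test. The gene names are those of the nearest protein-coding gene and say only where a window lies. The lowest difference was on chromosome 4 (5100001 to 5200000, *Fam110b*, 12 CpGs), with 64.8% and 80.5% in shScr against 34.3% and 34.8% in shTet3, a difference of −38.1 (adjusted p = 0.162 by limma). Its BS libraries gave a difference of −15.4. A window on chromosome 4 (26900001 to 27000000, *Bhmt-ps1*, 11 CpGs) had 69.2% and 77.1% in shScr against 45.2% and 29.2% in shTet3. The shTet3 libraries differed by 15.9 percentage points there. A window on chromosome 15 (5600001 to 5700000) nearest to *Ptger4*, which encodes a prostaglandin E2 receptor, had 75.1% and 84.7% in shScr against 39.5% and 50.3% in shTet3. The window on chromosome 15 (49500001 to 49600000) nearest to *Csmd3*, which encodes a large transmembrane protein with CUB and sushi domains, had 72.4% and 81.8% in shScr against 37.5% and 49.1% in shTet3. Nearest to *Gnpda2*, which encodes a glucosamine-6-phosphate deaminase, the window on chromosome 5 (70200001 to 70300000) had 77.9% and 83.9% in shScr against 47.7% and 50.8% in shTet3. In these 5 windows, chosen for their oxBS values, the oxBS difference lay between −38.1 and −31.7 and the BS difference between −27.8 and −15.4. The groups did not overlap in the oxBS libraries of any of them.

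At the other end, the 5 windows with the highest differences had means that were not lower in shTet3, and none of these passed the adjusted test either. A window on chromosome 4 (55600001 to 55700000, 15 CpGs) nearest to *Klf4*, a transcription factor of pluripotent cells, had 18.7% and 16.3% in shScr against 22.1% and 20.5% in shTet3, a difference of 3.84 (adjusted p = 0.242 by limma). In its BS libraries, which covered 8 of the CpGs, the difference was −4.42. By the same oxBS values that ranked it, this window held 4 of the 15 distal hyper-DMPs and 1 hypo-DMP. Hyper-DMPs were 0.0474% of distal CpGs and 0.0814% of all CpGs tested. Windows on chromosome 12 near *Gm17391* (22800001 to 22900000 with 52 CpGs, and 23200001 to 23300000 with 16 CpGs) and *Gm10479* (20300001 to 20400000 with 73 CpGs) were at 0.225 to 7.14% in all 4 oxBS libraries, with differences of 1.78, 1.75 and 2.06. A window near *Sorl1*, a sorting receptor gene, on chromosome 9 (41600001 to 41700000, 10 CpGs) had 41.4% and 16.6% in shScr against 27.3% and 33.1% in shTet3. There the shScr replicates lay on either side of the shTet3 replicates, in BS as in oxBS libraries.

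The least methylated distal windows were CpG-dense. The window nearest to *Rin2*, whose product acts on the small GTPase RAB5 (chromosome 2, 145500001 to 145600000, 11 CpGs), was at 0.649%, 0%, 0.168% and 0.655% in the oxBS libraries of shScr 1, shScr 2, shTet3 1 and shTet3 2. The window nearest to *Lsm5*, a component of the ring that binds U6 RNA (chromosome 6, 56500001 to 56600000, 16 CpGs), was at 0%, 1.81%, 0.741% and 0.285%. The shRNAs overlapped in both windows. The window farthest from any TSS, at a median of 1805 kb from *Cdh20*, a cadherin gene (chromosome 1, 104800001 to 104900000, 14 CpGs), had 52.6% and 72.3% in shScr against 45.7% and 40.8% in shTet3.

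**Figure D5:**
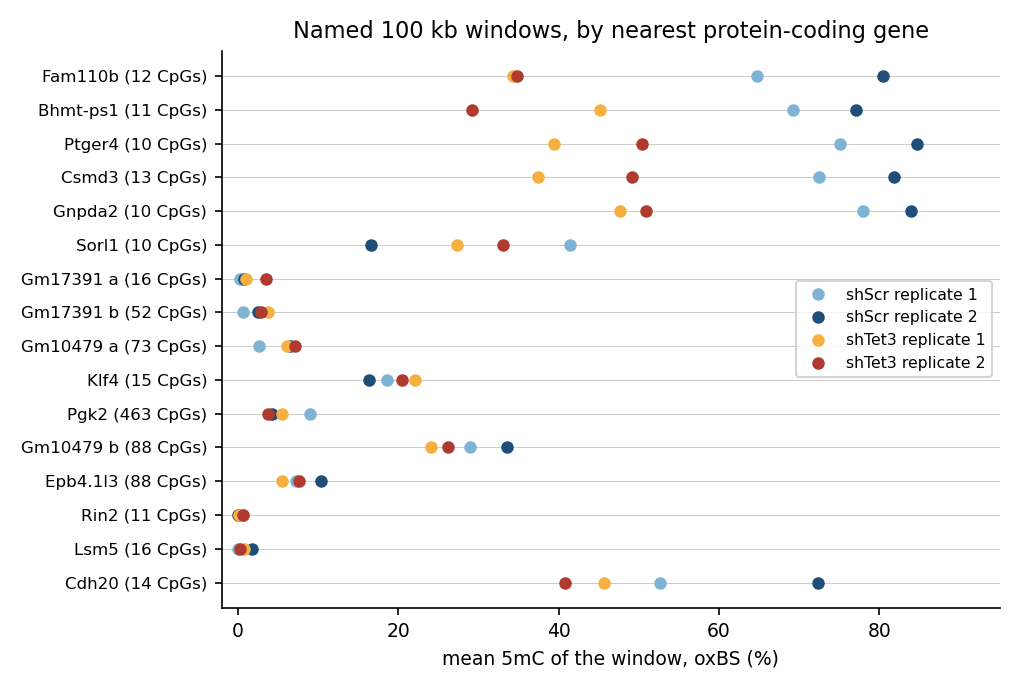
Mean 5mC (%) of the distal CpGs in each oxBS library for the 16 named windows of 100 kb, labelled by the nearest protein-coding gene and the number of CpGs. The 5 top windows, chosen for the lowest differences, have shTet3 and shScr apart, and the windows near *Rin2* and *Lsm5* stay under 2% in every library.

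The window of deepest coverage stood apart. It lay on chromosome 17 from 39900001 to 40000000, 363.2 kb from *Pgk2*, the gene of a testis phosphoglycerate kinase, and held 477 distal CpGs between 39978798 and 39990995, of which 463 were covered. Their median coverage was 316 to 1332 in the 8 libraries, against 34 to 46 at the other distal CpGs. They took between 36.5 and 57.1% of all calls at distal CpGs in a library. The CpG of the *Pgk2* stretch shown above had a coverage from 19076 to 48110. The annotation of mm9 places the pseudogene AY036118 in this window, and RefSeq, in the later build GRCm38.p6, lists *Rn18s-rs5*, related to 18S ribosomal RNA, next to it. Reads from other copies of such a sequence cannot be told from reads of this place where the copies are identical, and their part in these values was not tested. Methylation was low, at 9.02% and 4.23% in the oxBS libraries of shScr and 5.49% and 3.73% in those of shTet3, and the shRNAs overlapped. With nothing left out, 34.7% of distal CpGs and 13.9% of all CpGs tested were hypo-DMPs. Without this window, the mean difference over distal CpGs was −17.8 percentage points and 35.1% were hypo-DMPs. With calls pooled over CpGs, the difference was −9.89 with it and −16.8 without it.

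Other windows with many CpGs were less extreme. A window on chromosome 12 (20200001 to 20300000, *Gm10479*, 88 CpGs) had 28.97% and 33.6% in shScr against 24.0% and 26.2% in shTet3, and 25 of its CpGs were hypo-DMPs. A window on chromosome 17 (69100001 to 69200000, 88 CpGs) near *Epb4.1l3*, the gene of a membrane skeleton protein, had 7.26% and 10.4% in shScr against 5.495% and 7.65% in shTet3, and 3 of its CpGs were hypo-DMPs. Over all distal CpGs 34.7% were hypo-DMPs, against 13.9% of all CpGs tested. The shRNAs overlapped in the latter window and not in the former. Both shTet3 libraries lay below both shScr libraries in 796 (90.5%) of the 880 windows with at least 10 covered distal CpGs.

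Some distal CpGs shared their sequence. Of the 32-base sequences centred on a covered distal CpG, 714 occurred at more than 1 such CpG when both strands were read, and they took in 2544 distal CpGs, or 8.04%. Their letters are not printed, and their repeat families are not named, since no repeat annotation was used here. The most frequent sequence was found at 184 distal CpGs, the first of them at position 19520732 of chromosome 1. Its mean 5mC was 47.4% and 72.9% in shScr against 44.3% and 39.4% in shTet3, a difference of −18.3 percentage points with an SD of 13.03 over the copies, and 166 copies (90.2%) had a lower mean in shTet3, against 90.7% of all covered distal CpGs. The second sequence, at 51 CpGs, had 51.6%, 73.4%, 47.2% and 37.2%. The third, at 42 CpGs, had 43.4%, 69.8%, 40.4% and 38.2%. The fourth, at 25 CpGs, had 38.5%, 59.2%, 35.5% and 29.3%. In these 4 the shTet3 libraries lay below both shScr libraries, and the shScr replicates differed by 20.8 to 26.5 percentage points. The same order was found in 90.5% of the 880 windows with at least 10 covered distal CpGs. Of the 8 most frequent sequences, 1 overlapped: at its 18 CpGs, the first of them at position 44464451 of chromosome 3, the levels were 21.5% and 55.3% in the shScr libraries and 23.9% and 21.04% in the shTet3 libraries. Reads of 75 bases from near-identical copies may be placed at the wrong one, so the copies are uncertain as single places.

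As a group, CpGs whose sequence occurred 10 times or more (644) had 46.5% and 68.5% in shScr against 42.8% and 36.1% in shTet3, a difference of −18.1, and those with a sequence of their own (29097) had 54.0%, 67.02%, 44.2% and 41.9% and −17.5. The difference between shScr replicates was 22.1 percentage points in the former and 12.99 in the latter. Leaving out all recurring sequences gave a mean difference of −17.5 and 35.0% hypo-DMPs, against 34.7% of distal CpGs and 13.9% of all CpGs tested with nothing left out.

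The single CpGs with the largest calls are shown with the 60 bases around them, on the forward strand with the central CG in capitals, as they mark the extremes of the test. The first 3 are hypo-DMPs and the last 3 hyper-DMPs, chosen by the largest pooled oxBS difference among those at which both shTet3 libraries lay beyond both shScr libraries.
*BC048507*, chr13:68095325-68095384: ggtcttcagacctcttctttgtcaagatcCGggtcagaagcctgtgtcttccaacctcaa
*Aga*, chr8:54216752-54216811: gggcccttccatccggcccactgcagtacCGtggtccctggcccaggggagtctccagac
*Gm10295*, chr7:78221929-78221988: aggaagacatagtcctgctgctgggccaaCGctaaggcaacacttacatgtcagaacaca
*Gm5908*, chr8:33994262-33994321: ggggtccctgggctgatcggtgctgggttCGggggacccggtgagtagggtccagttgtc
*9430031J16Rik*, chr1:81440866-81440925: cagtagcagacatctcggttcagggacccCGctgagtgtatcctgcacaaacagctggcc
*Shq1*, chr6:100513774-100513833: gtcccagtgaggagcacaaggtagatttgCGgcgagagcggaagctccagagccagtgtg
The CpG 131.1 kb from *BC048507* had 75% and 100% in shScr against 0% and 29.4% in shTet3, with 11 to 17 calls in each oxBS library (*q* = 1.3e-06). With 12 calls, the 95% Wilson interval of the first of these values, which covers counting error only, runs from 46.8 to 91.1%. In the BS libraries the same CpG had 30.8% and 68.8% in shScr against 54.5% and 53.8% in shTet3, which is not lower. The CpG 274.4 kb from *Gm10295* had 91.2% and 93.8% in shScr against 12% and 50% in shTet3 in oxBS (*q* = 1.0e-10), and 78.8%, 80%, 37.5% and 70% in BS, where only 5 calls were behind the second value. The CpG 380.3 kb from *Aga*, which encodes a lysosomal amidase, had 76.5% and 85.0% in shScr against 20% and 6.67% in shTet3 (*q* = 1.1e-06). Its BS libraries gave a difference of −34.6, with a coverage under 10 in 2 of them.

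The named hyper-DMPs were not higher in the BS libraries. The CpG 406.5 kb from *Gm5908* had 0% in both shScr libraries and 34.8% and 17.6% in shTet3 in oxBS (*q* = 7.2e-03), but 0% and 12.5% in shScr against 4.76% and 5.00% in shTet3 in BS. The CpG 107.3 kb from *Shq1*, whose product assembles small nucleolar RNPs, had 12.8%, 10.8%, 25.9% and 44.4% in oxBS (*q* = 5.1e-03) and 37.1%, 27.0%, 32.8% and 24.1% in BS. The CpG 366.7 kb from *9430031J16Rik* had 4.35%, 15.4%, 36.4% and 27.3% in oxBS (*q* = 6.4e-03), and its BS difference was −27.7, with a coverage of 8 in shScr BS replicate 2. Over all 15 distal hyper-DMPs, 8 lay in CpG-rich sequence, which held 6.70% of the covered distal CpGs. Their median level in shScr was 1.73%, in the oxBS libraries from which they were called.

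Lists of genes, matched by symbol or by the start of the symbol, were compared by the distal CpGs to which their members were the nearest protein-coding gene. For neural developmental regulators (50 genes, 1228 CpGs) the levels were 58.3% and 70.9% in shScr against 47.4% and 45.3% in shTet3, the median over CpGs of the difference between shRNA means was −18.5 percentage points and 34.9% were hypo-DMPs. For pluripotency genes (6 genes, 192 CpGs) the median difference was −17.3 with 38.5% hypo-DMPs. For neural adhesion and guidance genes (63 genes, 1665 CpGs), which include cadherins and neurexins, they were −19.6 and 36.6%. For chemosensory receptor genes (16 genes, 90 CpGs) they were −17.0 and 37.8%, and for ion channel and neurotransmitter receptor genes (56 genes, 753 CpGs) −18.0 and 35.2%. Over all distal CpGs the median was −17.9 and 34.7% were hypo-DMPs, so that the lists lay near the background. Across the autosomes the difference ran from −19.3 on chromosome 15 to −12.9 on chromosome 17, and the latter was −16.7 without the window of deepest coverage.

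The distal CpGs nearest to single genes differed in level. After *Pgk2*, the genes with most covered distal CpGs were *Gm10479* (180), *Ajap1* (156), *Gm7536* (139) and *Vrk1* (139), ranked by number alone after the data were seen. The 180 CpGs nearest to *Gm10479* had 17.4% and 21.9% in the shScr libraries and 15.95% and 17.7% in the shTet3 libraries, which overlap. Of these CpGs 15.6% were hypo-DMPs, against 34.7% of distal CpGs and 13.9% of all CpGs tested. The 156 CpGs nearest to *Ajap1*, the gene of an adherens junction protein, had 65.9% and 77.0% in shScr against 53.5% and 51.8% in shTet3. Hypo-DMPs were 35.3% of them. The 139 CpGs nearest to *Vrk1*, which encodes a nuclear kinase, had 62.9%, 70.1%, 48.8% and 42.7%, and 43.2% were hypo-DMPs. The 139 CpGs nearest to *Gm7536* were less methylated, with 24.2% and 34.3% in shScr against 22.0% and 20.3% in shTet3, and 12.2% were hypo-DMPs. Both shTet3 libraries lay below both shScr libraries at the CpGs nearest to *Ajap1*, *Gm7536* and *Vrk1*, but not at those nearest to *Gm10479*. Of the 880 windows with at least 10 covered distal CpGs, 796 (90.5%) had this order.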

How the data were processed

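oxRRBS libraries of shScr and shTet3 NPCs were grouped by their labels. According to the methods and the submitters' processing notes, the authors trimmed 75-base single-end reads with Trim Galore, aligned them to mm9 with Bismark and tabulated them for methylKit. The tables deposited by the authors hold, for every CpG, an unnormalized count of calls (coverage) and the percent of them that were C and T. All CpGs in the tables had at least 5 calls in every library. Methylated counts were recovered from these deposited columns. No molecular identifiers are described for the PCR (18 cycles), so intervals and tests on counts, other than the overdispersion-corrected F test, cover counting error only.

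The members, lists and tests were chosen with earlier results of these data known. CpGs with at least 10 calls in the 4 libraries compared were kept, and levels were unweighted means over CpGs. Calls used a likelihood ratio test computed from the counts (Python 3.11.15, scipy 1.17.1) in place of methylKit. Windows were tested with limma 3.58.1 (R 4.3.3), and tests were tried on simulated data. Named windows were, among those with 10 or more distal CpGs, the 5 lowest and 5 highest differences, the 3 with most CpGs, the 3 of lowest shScr level and the farthest from a TSS. Named CpGs were the 3 DMPs of each direction whose pooled levels lay farthest apart, among those at which the replicates did not overlap. The alternatives were other coverage minimums (5, 20), TSS distances (50 and 200 kb) and annotated TSSs, leaving out CpGs past the 99.9th coverage percentile, other averages, other tests, shifted or fuller windows, a logit scale, the replicate block and leaving out each replicate.

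By the labels, a BS and an oxBS library that share an shRNA and a replicate number come from 1 DNA sample, and their deviations from the shRNA mean had a correlation of 0.332 in shScr and 0.219 in shTet3 over distal CpGs. For equal numbers in shScr and shTet3 the labels give no shared origin.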

Additional observations from a re-analysis of the deposited data

How the results depend on the processing

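Of 170 alternative values of 11 results, 146 kept their direction and moved by less than the SD between replicates or, for counts, by at most 1.5 times. Some of these could not move: the replicate block leaves mean differences as they were, and 0 windows beside 0 counted as kept. That SD is wide for the mean differences, as the values without single replicates show. An oxBS difference of −10.8 without shScr replicate 2 counted as kept beside −17.5 with all libraries. With read-weighted means, the distal difference was −9.89 in oxBS and −8.82 in BS, the difference of differences −3.60 against nearer intergenic CpGs and, reversed, 2.84 against gene bodies, and BS minus oxBS 0.656 in shTet3 and, reversed, −0.249 in shScr. With the deepest chromosome 17 window also left out, an alternative chosen after seeing the data, as was leaving out that window or the recurring sequences, these were −16.8, −16.0, −10.5, −4.03, 0.462 and −0.223. Other alternatives that used all libraries kept the oxBS difference between −18.8 and −16.5. The overdispersion-corrected F test called 0 distal CpGs in each of the 4 sets of calls, but it could hardly reach a *q* under 0.01 with so few libraries. At an unadjusted p under 0.05, with no limit on the size of the difference, 1667 distal CpGs were lower and 5 higher in oxBS. These were 5.27% and 0.0158%, against 1.96% and 0.00317% of all CpGs tested. In BS 1630 were lower (5.35%, against 1.86%), and 9 had BS above oxBS in shScr (0.0304%, against 0.0329%). Hyper-DMPs were 0.0282% of distal CpGs with TSSs of all annotated transcripts, against 0.0814% of all CpGs tested, a share which that change leaves as it was. With Fisher's exact test they were 0.0221% of distal CpGs, and the share over all CpGs with that test is not given here.

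Leaving out each replicate gave differences from −24.2 to −10.8 in oxBS and from −23.9 to −10.96 in BS, hypo-DMPs from 12.4 to 41.6% and from 10.98 to 42.6%, hyper-DMPs from 0.0186 to 0.378%, CpGs with BS above oxBS from 0.00963 to 1.07% and windows passing from 0 to 34.0%. The lowest and highest mean differences both came from leaving out a shScr library. Windows passed only without shScr replicate 1. BS minus oxBS ran from 0.332 to 0.702 in shScr and from 0.501 to 0.540 in shTet3, and the differences of differences from −13.6 to −5.65 and from −6.73 to −2.62.

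With the replicate block, 36.3% of distal CpGs were hypo-DMPs in oxBS and in BS, 0.0506% were hyper-DMPs, 0.507% had BS above oxBS, and 0 windows passed. The block changed no call by over 1.5 times, and the shares over all CpGs with it are not given here. Without the block, the shares over all CpGs tested were 13.9% and 13.8% for hypo-DMPs in oxBS and BS. They were 0.0814% for hyper-DMPs and 0.33% for BS above oxBS. The mean differences equal the unblocked ones by arithmetic. The deviations of same-numbered shScr and shTet3 oxBS libraries had a correlation of −0.0529 over distal CpGs.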
